A study of Mus musculus with 89 samples.

Results

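Goblet cells are the mucus-making cells of the gut lining, and the wells described here are single cells of the mouse jejunum that carried goblet transcripts. A well was taken as a goblet well when its unique molecular identifiers (UMIs, which count captured mRNA molecules) of Muc2, Fcgbp, Zg16, Clca1, Tff3 and Spink4 summed to at least 20. A well was kept if 200 to 7000 UMIs and 150 to 1500 genes were detected in it and mitochondrial UMIs made up no more than 40%. Of 16850 wells in the table, 5199 were kept, of which 220 were goblet wells, and the other 4979 kept wells served for comparison.

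Goblet cells store mucin in apical granules and release it to form the mucus layer. Muc2 is the gel-forming mucin of the intestine, a very large protein that is folded and disulfide-linked in the endoplasmic reticulum (ER), given O-glycans in the Golgi and packed into granules. Fcgbp, Zg16 and Clca1 are proteins of the mucus, Tff3 is a trefoil peptide released with it, and Spink4 belongs to a family of protease inhibitors. The secretory fate depends on the transcription factor Atoh1, and goblet cells mature under Spdef.

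The single cells came from 4 C57BL/6 male mice fed regular chow, labelled 3 months old except for 3 plates of mouse 2 labelled 4 months. No transgene, deletion or treatment is given for any mouse, and goblet and other wells came from the same animals. After dissociation with EDTA, cells were sorted into 384-well plates and sequenced by MARS-seq, a plate protocol with a barcode per well. The methods describe a gate on Epcam-positive, CD45-negative cells, and gates on CD24 to enrich enteroendocrine and tuft cells, the latter without the CD45 gate. The labels of the plates do not name CD45 throughout, and plates of mice 3 and 4 are labelled onlyEpcam, so the gate of a plate is known only as its label gives it. Shares of wells are thus shares of the sort and not of the tissue. The wells of a mouse were summed, and the mouse was the replicate (n = 4). A second table of sorted clumps of cells, from mice of the same strain, sex, diet and labelled age of 3 months, is used at the end.

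Goblet wells numbered 48 of 810 kept wells in mouse 1, 84 of 1793 in mouse 2, 73 of 1536 in mouse 3 and 15 of 1060 in mouse 4. Their sums held 109789, 176729, 203900 and 25405 UMIs in mice 1 to 4, against 2292209 to 3264819 UMIs for the other wells. A single UMI in the goblet sum of mouse 4 thus equalled 39.4 CPM, the UMIs of a gene scaled to a total of 1000000, and low genes there moved in steps of that size. The members lay on 39 of 44 plates, with at most 17 on a plate. Each of the 384 well barcodes occurred on more than 1 plate, since a barcode marks a position, and the 220 goblet wells had 220 distinct profiles over 171 barcodes.

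The 6 genes chose the members, so their values are a description without a test. Of the 5199 kept wells, 2999 had none of the 6 genes, 1756 had 1 to 4 UMIs, 199 had 5 to 9 and 25 had 10 to 19. Of the members, 12 had 20 to 39 UMIs and 208 had 40 or more. The members just inside the limit held 20, 22, 24, 25, 26 and 26 UMIs, and the wells just outside held 19, 19, 18, 18, 14 and 14. Few wells therefore lay near the limit.

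**Figure D1:**
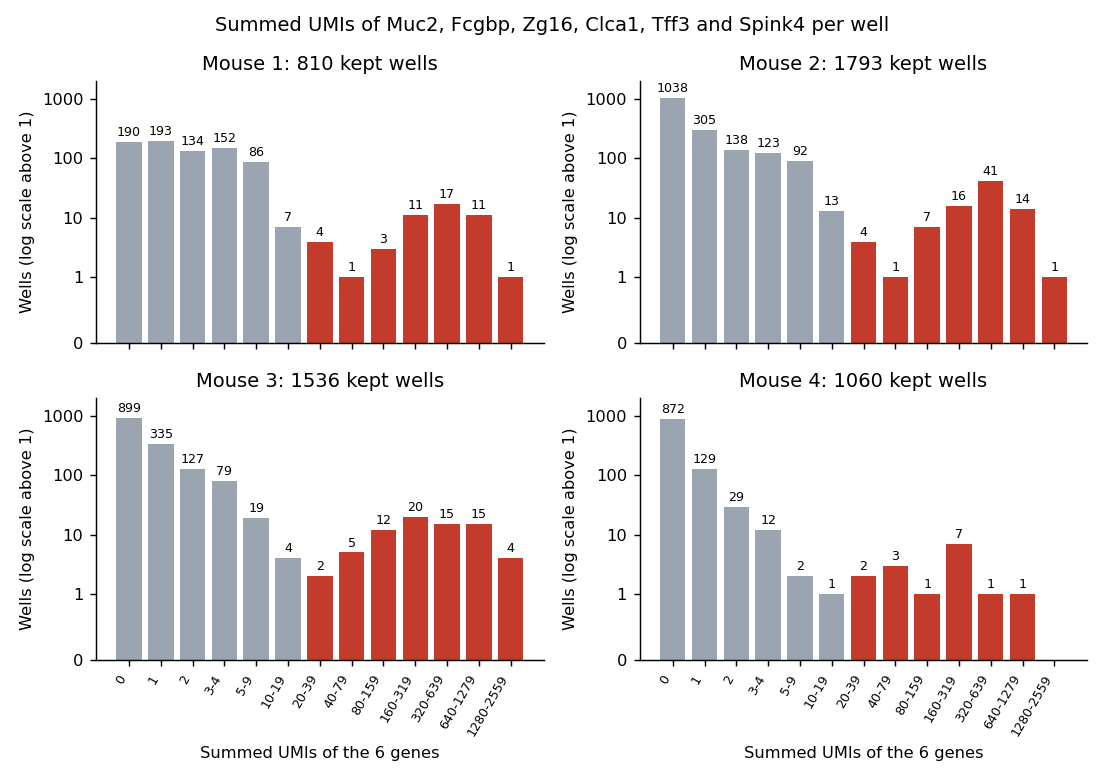
Number of kept wells (vertical axis, log scale above 1) by the summed UMIs of the 6 genes in a well (horizontal axis, ranges of UMIs), with a panel for each of the 4 mice. Red bars are goblet wells and grey bars all other wells. Over the mice, 25 wells lie at 10 to 19 UMIs and 12 at 20 to 39, beside 2999 wells at 0 and 208 at 40 or more.

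Tff3 was found in every goblet well, with a median of 119 UMIs. Zg16 had the highest median of the 6 genes at 145 UMIs, and the medians of Fcgbp, Clca1, Muc2 and Spink4 were 32.5, 14, 13 and 9 UMIs. All 6 genes were detected in 185 of the 220 wells, 5 of them in 21 wells and a single one in 2 wells. The 6 genes took 20.7%, 22.3%, 16.3% and 12.8% of the goblet UMIs of mice 1 to 4, and 0.0109% to 0.0645% of the UMIs of other wells. Zg16 made up 43.2% to 48.1% of the UMIs of the 6 genes and Tff3 27.8% to 38.0%, depending on the mouse.

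The goblet label was checked against markers of other cells. Tuft markers and lymphocyte markers each reached at most 8 UMIs in a goblet well, and Avil, Alox5ap and Gng13 of the tuft list and Trdc of the lymphocyte list were at 0 in all goblet wells. Enteroendocrine markers reached 10 UMIs in 5 wells, with 396 UMIs in a well of mouse 1, and enterocyte genes reached 20 UMIs in 1 well. In mouse 1 the enteroendocrine markers summed to 6576 CPM in goblet and 1258 CPM in other wells, while in mice 2 to 4 they were lower in goblet wells. The 6 genes of the rule took 0.856% of the UMIs of the 1 member on EpcamLow_Cd24high plates of mouse 1. They took 2.37% in the 4 members on CD24 plates of mouse 2 and 24.55% on its Epcam plates. Paneth markers include defensins, the protease Mmp7, and Ang4 and Itln1, which are also listed below as secreted goblet products. These markers reached 10 UMIs in 39 goblet wells, namely 3, 12, 19 and 5 in mice 1 to 4, with up to 286 UMIs in a well of mouse 3. How many of these wells reached the limit through Ang4 and Itln1 was not tested. Red cell and plasma cell transcripts reached 10 UMIs in 9 wells, all of mouse 3. No doublet caller was run, and wells of mixed content stayed among the members.

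The share of goblet wells moved with the sort. In mouse 2, plates labelled Epcam gave 66 goblet wells of 573 (11.5%) and plates labelled CD24 gave 4 of 1080 (0.370%), where 53.9% of wells held lymphocyte markers. In mouse 3, the CD45Epcam plates gave 23 of 276 (8.33%) and the onlyEpcam plates 50 of 1260 (3.97%). Lymphocyte-marker wells were 45.3% of the kept wells on the onlyEpcam plates of mouse 3 and 24.6% on those of mouse 4, against 3.26% on the CD45Epcam plates of mouse 3 and 5.43% on the CD54Epcam plates of mouse 4. The other wells were not the same mixture in each mouse. Lymphocyte-marker wells made up 0.131%, 34.1%, 39.6% and 20.2% of them in mice 1 to 4, and enterocyte-marker wells 74.15%, 23.2%, 25.5% and 49.6%. Comparisons with single cell types are therefore given after the comparison with all other wells.

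Depth did not separate goblet from other wells beyond the spread between mice. The median goblet well held 1899, 1880, 2609 and 1532 UMIs in mice 1 to 4, and the median other well 2911, 1505, 1382 and 1633 (exact permutation test over mice, two-sided, p = 0.714, Benjamini-Hochberg adjusted p = 0.714 over 3 medians). Mouse 3 decided the direction, since the difference of 122 UMIs went to -246 without it. The exact permutation test gave p = 0.486 (adjusted 0.714) for the median number of genes, at 458.5, 458, 655 and 551 in goblet wells against 408, 560, 494 and 485. For the median mitochondrial share, 13.9, 13.1, 15.4 and 12.1% against 32.8, 12.0, 13.75 and 24.8%, the exact permutation p was 0.343 (adjusted 0.714). The smallest p this test can give with 4 mice a side is 0.0286.

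Against all other wells, goblet wells stood apart by a set of secretory genes at low levels elsewhere and by low levels of absorption genes. Of 6675 genes tested by edgeR's quasi-likelihood test with Benjamini-Hochberg adjustment at 0.05, 253 were higher in goblet wells (3.79%) and 357 were lower (5.35%), not counting the 6 genes of the rule. All tested genes had a median log2 change of -0.29. Averaged over mice, the normalization factors made log2 changes about 0.42 smaller than the log2 ratios of the CPM values printed here. The shift differs by gene, since the factors ran from 0.45 for the other sum of mouse 1 to 2.07 for the goblet sum of mouse 4. Single mice moved these counts: 165 higher and 223 lower genes were called without mouse 2, 132 and 186 without mouse 3, 175 and 129 without mouse 4, and 317 and 578 without mouse 1. In bulk sums of this kind, fewer cells with a transcript and less of it per cell cannot be told apart. All adjusted p-values below are from the same edgeR test. Genes nearly absent from other wells, such as Fer1l6, Atoh1, Spdef and Bcas1, passed the low-count filter through their goblet sums alone. The p-values of such genes are given as a description and not as independent support.

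Fer1l6, of the ferlin family of membrane proteins (chr15:58510048-58665092, GRCm38), was among the genes that were nearly absent elsewhere. It stood at 309.7, 424, 245 and 118 CPM in the goblet sums of mice 1 to 4 and at 0, 0.306, 0 and 0 CPM in the other sums. The other wells held 1 UMI of it in all, against 162 UMIs in 92 goblet wells, and the ratio of the pooled sums was 3529 with a 95% counting interval of 624 to 140200 (adjusted p = 2.66e-06). Capn9, a calpain protease of the digestive tract, had 91.1, 130.1, 157 and 197 CPM in goblet wells and no UMI in other wells, at least 508-fold higher if 3 UMIs are taken as the floor over all other wells. Pla2g10, a secreted phospholipase A2, had 91.1, 73.6, 88.3 and 157 CPM and likewise no UMI elsewhere, at least 327-fold higher. Their counts elsewhere are too few to rank the 3 rises. Each of these genes was present in the goblet sum of every mouse and did not overlap with the other sums. Over all 6675 tested genes, the CPM of every goblet sum lay above that of every other sum for 6.32% and below it for 8.73%, and the genes whose sums are described here were picked for large changes.

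Tpsg1, a tryptase family protease, had 137, 153, 181.5 and 354 CPM in goblet wells and 2 UMIs over all other wells, with a pooled ratio of 958 (95% counting interval 258 to 8038). Rep15, a partner of the small GTPase Rab15, had 63.8, 102, 255 and 39.4 CPM against 2 UMIs in other wells (ratio 849.5, interval 227 to 7138). The non-coding transcript 2010001K21Rik had 18.2, 67.9, 19.6 and 275.5 CPM against 3 UMIs (ratio 181.5, interval 55.4 to 939). Goblet and other sums of the 3 genes did not overlap.

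9530053A07Rik, a gene resembling Fcgbp, lies next to it on the same strand (chr7:28129466-28164811 beside chr7:28071236-28120862, GRCm38). It reached 8425, 13970, 13470 and 4960 CPM in goblet wells and 15.45, 26.0, 15.2 and 3.93 CPM in other wells (log2 change 9.08 ± 0.98 SE, adjusted p = 1.54e-05). Reads of related neighbours can be split by the counting, so its level is uncertain beside that of Fcgbp, which chose the members. It was detected in 210 of 220 goblet wells.

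Ido1, an enzyme of tryptophan breakdown, had 2651, 2337, 1609 and 472 CPM in goblet wells and 9.755, 3.98, 1.55 and 0 CPM in other wells (log2 change 8.24 ± 1.23 SE, adjusted p = 3.47e-04). Mouse 4 was the lowest of the goblet sums and still lay above each other sum. Ido1 was uneven among goblet wells: 140 of 220 held it, with a median of 2 UMIs and up to 53, and 10 wells held 31.6% of its UMIs. Ccl6, a chemokine, had 1157, 1245, 1535 and 1968 CPM in goblet wells against 8.13, 10.1, 4.66 and 2.62 (log2 change 7.29 ± 0.73 SE, adjusted p = 8.69e-06). It was found in 170 goblet wells, and its sums did not overlap.

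**Figure D2:**
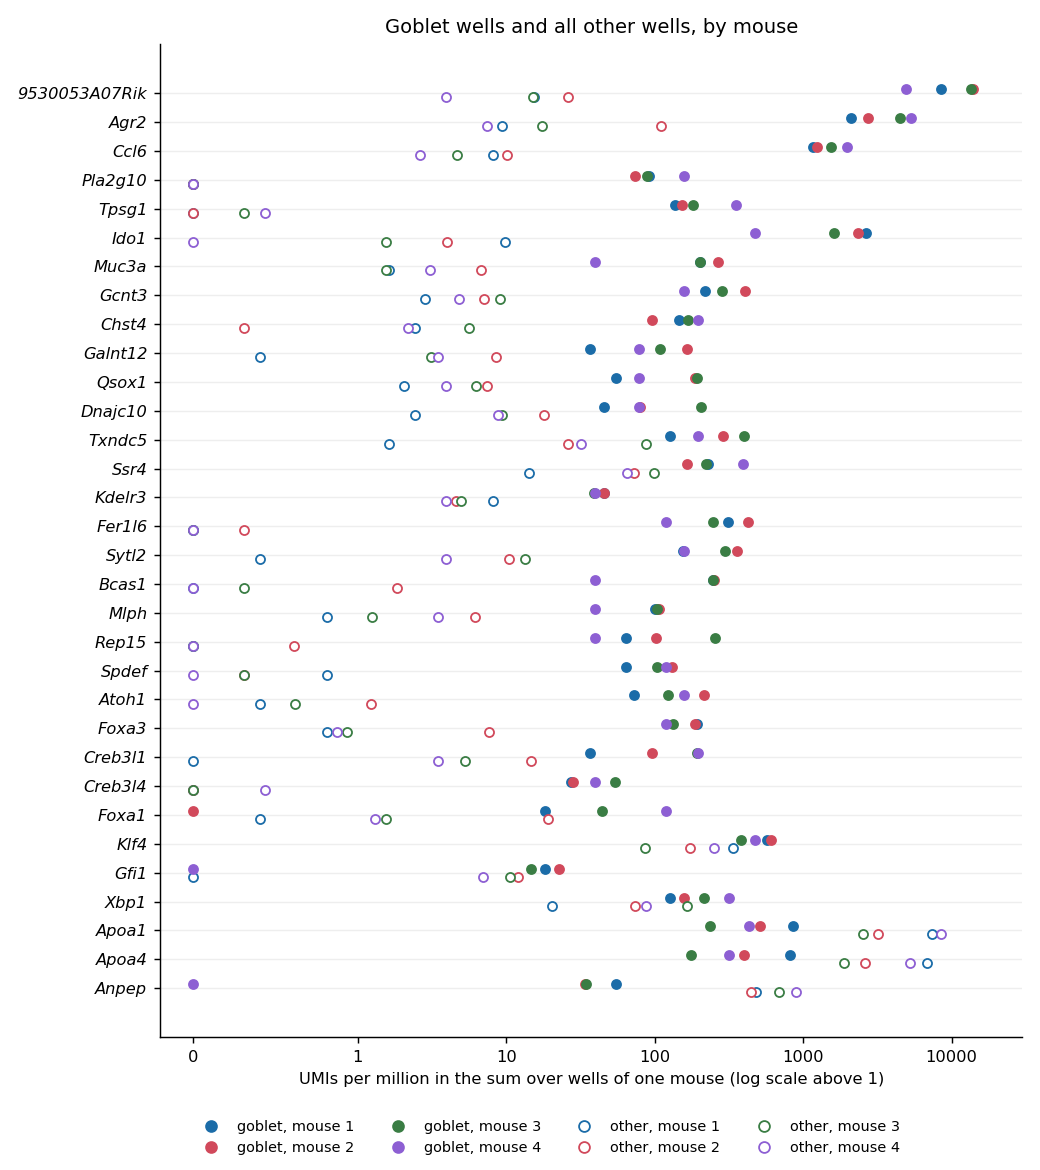
Level in CPM (horizontal axis, log scale above 1) of 32 genes in the sum over goblet wells (filled points) and over all other wells (open points) of each of 4 mice. For Atoh1 and Spdef the filled points lie at 63.8 or more and the open points at 1.23 or less, while the points of Foxa1, Gfi1 and Xbp1 overlap.

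Secreted proteins beyond the rule were mostly higher. Of 25 listed products, 14 could be tested, 9 rose and 0 fell, and the median log2 change was 4.08 beside -0.29 over all genes. Agr2, a protein disulfide isomerase of the ER needed for making Muc2, had 2113, 2744, 4497 and 5353 CPM in goblet wells and 9.35, 110.3, 17.4 and 7.42 CPM in other wells (log2 change 6.485 ± 0.84 SE, adjusted p = 8.73e-05). The highest value among other wells was that of mouse 2, which had 217 of the 245 enteroendocrine-marker wells. Klk1, a kallikrein, averaged 569.5 ± 74.55 CPM (SD, n = 4) against 6.79 ± 7.04, and Guca2a, the guanylin precursor, averaged 974 ± 646 CPM against 37.2 ± 32.45, both called. Itln1 and Ang4, antimicrobial proteins that Paneth cells also make, rose as well. Itln1 stood at 27.3, 158, 529.7 and 748 CPM against 18.3, 141, 14.6 and 16.6, which overlapped. Without the 39 members with Paneth markers its log2 change went from 2.53 to 0.49 and was no longer called. Itln1 is itself on that marker list, so its own UMIs helped to choose the members left out. This fall was thus partly set in advance and does not show the source of its rise. The call of Itln1 was also lost without mouse 3 or mouse 4. Klk1 and Ang4 belong to families of similar genes, and their reads may be split.

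The study's own list of goblet markers, chosen by the study on published single cells, held 36 genes without the 6 of the rule. Of these, 29 could be tested, 27 rose and 0 fell, with a median log2 change of 5.375. Cmtm7 and Tnfaip8 were the tested members that did not pass. The list summed to 6904, 8459, 10830 and 11810 CPM in the goblet wells of mice 1 to 4 and to 76.0, 607, 404.5 and 253 CPM in other wells. Its members were picked as goblet genes, so their direction is not independent evidence.

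Among the membrane mucins, which coat the apical surface, Muc3a rose. It had 200.4, 266, 201 and 39.4 CPM in goblet wells against 1.63, 6.74, 1.55 and 3.05 (log2 change 5.74 ± 0.68 SE, adjusted p = 3.62e-05), with 1 UMI behind mouse 4. Muc3, a related gene, had a log2 change of -1.01 (adjusted p = 0.318), and since reads may be split between related mucins the value of Muc3a is uncertain. Muc13 had a log2 change of 0.12 and Muc4 of 1.19, and neither passed.

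Of 40 genes of mucin O-glycosylation and sulfation, 23 could be tested, 10 rose and 1 fell, with a median log2 change of 1.33. Gcnt3, which branches the O-glycan core, had 219, 407, 284.5 and 157 CPM in goblet wells and 2.845, 7.045, 9.01 and 4.80 CPM in other wells (log2 change 5.34 ± 0.59 SE, adjusted p = 2.01e-05). Chst4, a sulfotransferase, had 146, 96.2, 167 and 197 CPM against 2.44, 0.306, 5.59 and 2.18 (5.375 ± 0.69 SE, adjusted p = 7.56e-05). Galnt12, of the enzymes that add the first sugar of an O-glycan, had 36.4, 164, 108 and 78.7 CPM against 0.4065, 8.58, 3.11 and 3.49 (4.60 ± 0.62 SE, adjusted p = 1.40e-04). None of the 3 overlapped between goblet and other sums.

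Galnt5, of the same initiating family, had 9.11, 45.3, 39.2 and 39.4 CPM against 2 UMIs in all other wells, a pooled ratio of 196 with a 95% counting interval of 46.9 to 1742. Galnt3 and Galnt7 rose too, with log2 changes of 4.12 and 3.25, as did C1galt1 (2.45), which extends the first sugar with galactose, and its chaperone C1galt1c1 (2.84). St3gal4, a sialyltransferase, was the list's member that fell, at 126.5 ± 21.6 CPM in goblet wells and 353 ± 135 CPM in other wells (SD, n = 4; log2 change -1.915). Galnt1, Galnt6 and Galnt10 did not pass, with log2 changes of 0.71, 0.35 and 1.33.

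Of 23 tested genes that supply activated sugars, 6 rose and 2 fell, with a median log2 change of 0.80. Tsta3 and Gmds, the enzymes that make GDP-fucose, both rose, Tsta3 with 91.1, 147, 127.5 and 118 CPM against 15.0, 27.3, 25.5 and 27.9 (2.09 ± 0.45 SE, adjusted p = 0.006785). Slc35a1, the Golgi carrier of CMP-sialic acid, had 9.11, 11.3, 53.95 and 39.4 CPM against 1.22, 6.74, 4.04 and 2.62 (2.76 ± 0.62 SE, adjusted p = 0.00863). Gnpnat1, of the route to UDP-GlcNAc, had 36.4, 17.0, 39.2 and 39.4 CPM against 0.813, 8.27, 9.94 and 6.54 (2.17 ± 0.57 SE, adjusted p = 0.0226). The genes that fell were Ugdh and Slc35c2, the latter with 9.11, 11.3, 24.5 and 39.4 CPM against 67.5, 59.4, 53.75 and 72.4 (-2.25 ± 0.61 SE, adjusted p = 0.0269). The 4 genes with printed values did not overlap between goblet and other sums, but the calls of Slc35a1 and Gnpnat1 were lost without mouse 3 or mouse 4, that of Tsta3 without mouse 2 or mouse 3, and that of Slc35c2 without any one of the 4 mice. Over all alternatives, Gnpnat1 lost its call in 4 and Slc35c2 in 5.

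Of 30 tested chaperones and oxidoreductases of the ER, 5 rose and 0 fell, with a median log2 change of 0.60 over the list. Of the 25 that did not pass, 21 had a log2 change above 0, as had 2196 of the 6065 genes that did not pass over the whole table. Qsox1, a sulfhydryl oxidase of the secretory pathway, had 54.65, 187, 191 and 78.7 CPM against 2.03, 7.35, 6.21 and 3.93 (log2 change 4.62 ± 0.57 SE, adjusted p = 5.92e-05). Dnajc10, an ER disulfide reductase, had 45.5, 79.2, 206 and 78.7 CPM against 2.44, 18.1, 9.32 and 8.725 (3.37 ± 0.56 SE, adjusted p = 9.43e-04). Txndc5, of the protein disulfide isomerase family, had 127.5, 289, 397 and 197 CPM against 1.63, 26.0, 86.7 and 31.85 (2.75 ± 0.71 SE, adjusted p = 0.0215). These 3 did not overlap between goblet and other sums, and the call of Txndc5 was lost without mouse 2 or mouse 4. Hspa5 and Calr, abundant ER chaperones, had log2 changes of 0.82 (adjusted p = 0.357) and 0.92 (adjusted p = 0.263).

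Of 35 tested genes of protein import into the ER and N-glycan transfer, 2 rose, Ssr4 and Serp1, beside 3.79% of all genes (median log2 change 0.83). Of the 33 others, 31 had a log2 change above 0, beside 2196 of 6065 over the whole table. At an unadjusted p under 0.05, 11 of the 35 were higher, and DESeq2 called 6. Ssr4, a subunit of the translocon-associated protein complex, had 228, 164, 221 and 394 CPM against 14.2, 72.3, 98.2 and 65 (1.72 ± 0.47 SE, adjusted p = 0.0280). Serp1, which protects new membrane proteins at the translocon, had 109, 192, 226 and 394 CPM against 19.9, 69.5, 94.8 and 62.4 (1.53 ± 0.46 SE, adjusted p = 0.0430). The sums of both genes stood apart, but the call of Ssr4 was lost without any one of the 4 mice, that of Serp1 without mouse 2, 3 or 4, and both without the 39 members with Paneth markers. In all, the call of Serp1 was lost in 10 alternatives and that of Ssr4 in 7.

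Of 23 tested genes of the unfolded protein response and of ER-associated degradation, 4 rose and 1 fell (median log2 change 0.43). Vimp, a selenoprotein of the degradation complex, had 118, 141.5, 206 and 354 CPM against 16.3, 40.1, 46.9 and 43.6 (2.05 ± 0.44 SE, adjusted p = 0.00602), and its call was lost without mouse 2 or mouse 3. Creb3l3, a membrane-bound factor of lipid-handling cells, fell, with 54.65, 11.3, 14.7 and 39.4 CPM against 359.7, 180.1, 157.5 and 368 (-3.88 ± 0.745 SE, adjusted p = 0.00295), and its call was lost when members were taken from 10 UMIs on (adjusted p = 0.0964). Xbp1, the factor spliced on ER stress, had 127.5, 158, 216 and 315 CPM against 20.3, 73.2, 165 and 87.7, which overlapped, and did not pass (0.94 ± 0.49 SE, adjusted p = 0.290). Creb3l1 and Creb3l4 rose and are given with the transcription factors. In the secretory lists of which no gene fell by edgeR, at most 2 genes of a list were lower at an unadjusted p under 0.05 and at most 2 by DESeq2.

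Promoters of the genes that rose were searched on both strands for a pair of sequences known from ER stress genes, the ER stress response element (CCAAT and CCACG with 9 bases of any kind between them) and the core TGACGTGG of the Xbp1-bound element. RefSeq promoters of GRCm38.p6, from 250 bases before to 50 after a start, were held for 183 of the 253 genes, as 240 promoters. The first sequence was in 2 of them (0.833%), in 0 of 337 promoters of genes that fell, in 0.169% of the 5914 promoters of tested genes and in 0.119% of all 32851 promoters. The second was in 4 (1.67%) and in 5 of the 337 promoters of genes that fell (1.48%), beside 0.998% of the promoters of tested genes and 0.676% of all. The 250 bases before the start are printed for Pdia6, Txndc5 and Kdelr3, the called genes of the ER lists that held a match, 5′ to 3′ on the strand of the gene, with the matched bases in capitals.
Pdia6, + strand, chr12:17266339-17266588: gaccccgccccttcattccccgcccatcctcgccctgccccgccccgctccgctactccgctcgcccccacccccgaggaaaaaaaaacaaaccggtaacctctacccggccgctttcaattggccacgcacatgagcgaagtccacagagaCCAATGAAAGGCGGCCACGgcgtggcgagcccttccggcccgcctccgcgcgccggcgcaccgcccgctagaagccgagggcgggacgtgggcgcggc
Txndc5, - strand, chr13:38527915-38528164: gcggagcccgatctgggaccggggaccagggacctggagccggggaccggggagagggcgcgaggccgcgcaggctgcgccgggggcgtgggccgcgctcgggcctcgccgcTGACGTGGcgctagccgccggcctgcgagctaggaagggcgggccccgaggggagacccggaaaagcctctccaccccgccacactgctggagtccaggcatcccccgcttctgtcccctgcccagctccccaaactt
Kdelr3, + strand, chr15:79516158-79516407: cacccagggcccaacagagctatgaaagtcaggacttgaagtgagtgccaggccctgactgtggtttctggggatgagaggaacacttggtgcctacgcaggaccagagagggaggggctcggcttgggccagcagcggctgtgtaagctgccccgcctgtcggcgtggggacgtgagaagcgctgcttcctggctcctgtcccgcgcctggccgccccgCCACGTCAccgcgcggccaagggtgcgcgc
The matches of Pdia6 and Txndc5 are on the strand of the gene. That of Kdelr3 is on the opposite strand, so that its capitals read as the reverse complement of the core. For Txndc5 the RefSeq start used, and the bases printed before it, lie inside the gene as otherwise annotated (chr13:38500079-38528824). Pdia6, a protein disulfide isomerase, averaged 191.5 ± 219 CPM (SD, n = 4) in goblet wells and 30.3 ± 22.8 in other wells, and its adjusted p of 0.04996 lay at the threshold. It is named for its promoter, after its values were seen. The other motifs searched are given by their share in promoters of genes that rose, that fell, that were tested and of all genes, in this order. TGTTTAC of forkhead factors was in 2.5%, 2.37%, 2.54% and 3.65%, the E-box CAGCTG in 20.4%, 18.4%, 14.5% and 16.3%, and TTTATG of Cdx factors in 10.8%, 10.7%, 6.595% and 11.85%. A match describes the letters and says nothing of binding.

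Of 51 tested genes of transport between the ER and the Golgi, 4 rose and 0 fell, beside 3.79% and 5.35% of all genes (median log2 change 0.18). Kdelr3 and Kdelr2 are receptors that return ER proteins from the Golgi. Kdelr3 had 45.5, 45.3, 39.2 and 39.4 CPM in goblet wells and 8.13, 4.59, 4.97 and 3.93 in other wells (2.60 ± 0.61 SE, adjusted p = 0.0119), and Kdelr2 had 173, 119, 275 and 275.5 CPM against 19.5, 67.4, 69.6 and 62.8 (1.67 ± 0.45 SE, adjusted p = 0.0267). Tmed3, of the p24 family of cargo receptors, had 118, 73.6, 63.8 and 78.7 CPM against 6.91, 26.0, 19.6 and 16.1 (2.12 ± 0.46 SE, adjusted p = 0.00708). Arf4, a small GTPase of vesicle coats, had 273, 141.5, 294 and 551 CPM against 26.0, 72.9, 96.3 and 81.1 (1.77 ± 0.46 SE, adjusted p = 0.0202). None of the 4 overlapped. The calls of Kdelr2 and Arf4 were lost without mouse 2, 3 or 4 and without the members with Paneth markers, that of Kdelr3 without mouse 2 or mouse 4, and that of Tmed3 held without any one mouse. Over all alternatives, the call of Kdelr2 was lost in 6 and that of Arf4 in 5.

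Of 26 tested genes of granule traffic and release, 10 rose and 1 fell (median log2 change 0.91). Sytl2, an effector of the granule GTPase Rab27, had 155, 356.5, 299 and 157 CPM in goblet wells and 0.4065, 10.4, 13.4 and 3.93 in other wells (log2 change 5.07 ± 0.70 SE, adjusted p = 1.56e-04). Mlph, which links Rab27 to myosin, had 100.2, 107.5, 103 and 39.4 CPM against 0.813, 6.13, 1.24 and 3.49 (4.90 ± 0.59 SE, adjusted p = 3.88e-05). Bcas1 had 246, 249, 245 and 39.4 CPM against 0, 1.84, 0.311 and 0 (8.24 ± 0.88 SE, adjusted p = 1.38e-05), with a single UMI behind mouse 4. Goblet sums of these 3 lay above each other sum.

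Both Rab27 genes rose, Rab27a with 181.5 ± 42.2 CPM against 10.3 ± 6.40 (SD, n = 4; log2 change 4.00) and Rab27b with 319 ± 70.03 CPM against 9.68 ± 9.80 (4.745). The GTPases Rab3d (3.40) and Rab15 (4.13) and the exocytosis protein Unc13b (2.99) rose as well. Nsf, Napa, Vamp8, Vamp2, Snap23 and Stx3, of the common fusion machinery, did not pass, with log2 changes of -0.92 to 0.42. The member that fell was Nlrp6, an inflammasome sensor, with 3 UMIs in goblet wells and 39.35 ± 23.2 CPM in other wells.

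Of 26 tested transcription factors, 7 rose and 0 fell (median log2 change 0.85). Over tuft-marker wells alone, 4 of 13 rose and 3 fell, beside 15.9% and 15.3% of all genes. The list took 0.226%, 0.259% and 0.234% of goblet UMIs in mice 1 to 3, and 0.264%, 0.255% and 0.191% in their tuft-marker wells. Atoh1 (chr6:64729125-64731245, GRCm38) had 72.9, 215, 123 and 157 CPM in goblet wells and 0.4065, 1.225, 0.621 and 0 CPM in other wells (log2 change 7.50 ± 0.69 SE, adjusted p = 4.55e-06). Spdef (chr17:27714352-27728955) had 63.8, 130.1, 103 and 118 CPM against 0.813, 0.306, 0.311 and 0 (7.63 ± 0.70 SE, adjusted p = 4.55e-06). Foxa3, a forkhead factor, had 191, 187, 132 and 118 CPM against 0.813, 7.66, 0.932 and 0.8725 (5.81 ± 0.69 SE, adjusted p = 3.82e-05). In each of the 3 the lowest goblet sum was above the highest other sum, and the calls held without any one mouse. Atoh1 and Spdef entered the test through their goblet sums alone, so their calls are a description.

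Creb3l1 and Creb3l4 are factors held in the ER membrane and released by cleavage. Creb3l1 had 36.4, 96.2, 191 and 197 CPM against 0, 14.7, 5.28 and 3.49 (4.27 ± 0.71 SE, adjusted p = 9.43e-04), and Creb3l4 had 27.3, 28.3, 53.95 and 39.4 CPM against 1 UMI in all other wells (pooled ratio 436, 95% counting interval 69.7 to 18060). Cdx1 (1.905), an intestinal homeobox factor, and Tead1 (2.04), the partner of Yap, also rose. Klf4, a factor of goblet maturation, had 574, 605, 382.5 and 472 CPM against 335, 171.5, 86.1 and 250, so that the sums did not overlap, but its log2 change after normalization was 0.64 ± 0.63 SE, adjusted p = 0.630. Gfi1, which acts after Atoh1, had 18.2, 22.6, 14.7 and 0 CPM against 0, 11.95, 10.6 and 6.98 and did not pass (1.18 ± 0.81 SE, adjusted p = 0.4605).

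Foxa1 had 18.2, 0, 44.1 and 118 CPM in goblet wells and 0.4065, 18.99, 1.55 and 1.31 in other wells, and mouse 2 went against the other 3. It did not pass (2.26 ± 0.98 SE, adjusted p = 0.182). With the mouse as a block its log2 change was 2.70 (adjusted p = 0.00215), and without mouse 2 it was 4.76 (adjusted p = 2.59e-04), both past the threshold. With no filter on low counts it was 2.09 (adjusted p = 0.0360), also past it.

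Channels and transporters went both ways, with 6 of 20 tested genes higher and 4 lower (median log2 change 0.86). Lrrc26, a subunit of large-conductance potassium channels, had 82.0, 147, 147 and 78.7 CPM against 0, 1.84, 0.932 and 1.745 (6.51 ± 0.64 SE, adjusted p = 7.16e-06). Slc12a8, a solute carrier, had 54.65, 96.2, 255 and 157 CPM against 0.813, 3.98, 1.24 and 1.31 (5.98 ± 0.63 SE, adjusted p = 1.25e-05). Ramp1, a partner of peptide receptors, had 91.1, 79.2, 108 and 118 CPM against 0.4065, 3.98, 1.55 and 0 (5.72 ± 0.65 SE, adjusted p = 2.35e-05). The sums of these 3 did not overlap. Among those that fell were Clcn2, a chloride channel, Slc26a6, an anion exchanger, and Car2, a carbonic anhydrase. The call of Clcn2 was lost when members were taken from 10 UMIs on. Clcn2 had 1 UMI in all goblet wells, in mouse 4, against 27.0 to 76.8 CPM in other wells (pooled ratio 0.0384, 95% counting interval 9.71e-04 to 0.215).

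Most listed enterocyte genes were low in goblet wells. The list is mainly of nutrient absorption but also holds antimicrobial genes and genes of drug and purine metabolism. Of 41 tested, 34 fell and 1 rose, with a median log2 change of -3.14. Apoa1, the main protein of high-density lipoprotein, had 856, 509, 235 and 433 CPM in goblet wells and 7370, 3181, 2532 and 8477 CPM in other wells (log2 change -3.95 ± 0.79 SE, adjusted p = 0.00412), a call lost when members were taken from 10 UMIs on (adjusted p = 0.109). Apoa4, another lipoprotein component, had 819.8, 402, 177 and 315 CPM against 6793, 2604, 1873 and 5205 (-3.87 ± 0.83 SE, adjusted p = 0.00638), a call lost without mouse 4 and when members were taken from 10 UMIs on. Anpep, a brush border peptidase, had 54.65, 33.95, 34.3 and 0 CPM against 482, 444, 683 and 893 (-4.41 ± 0.66 SE, adjusted p = 3.96e-04). No goblet sum of the 3 reached an other sum. Enpep, a peptidase, and Slc15a1, the peptide transporter, held 2 and 3 UMIs in all goblet wells, with pooled ratios of 0.0418 and 0.0533 (95% counting intervals 0.00505 to 0.151 and 0.0110 to 0.156). The list's exception was Lypd8, a protein that keeps bacteria from the epithelium, at 3490 ± 499 CPM against 301.5 ± 189.9 (SD, n = 4; log2 change 3.36). The list as a whole summed to 6184 to 9500 CPM in goblet wells and to 17740 to 35700 CPM in other wells.

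Of 15 mitochondrially encoded genes tested, 8 fell and 0 rose (median log2 change -2.07). mt-Nd1, of respiratory complex I, had 1676, 1969, 2658 and 3936 CPM against 8212, 6366, 8038 and 9377 (-2.26 ± 0.60 SE, adjusted p = 0.02405), and its call was lost without any one of the 4 mice. The sums of mt-Atp8, mt-Co2 and mt-Atp6 overlapped between goblet and other wells, and their calls were lost in 2, 4 and 4 alternatives, for each of the 3 genes also when mouse 4 was left out. Mitochondrial genes took 14.25% to 15.6% of goblet UMIs, 20.0% to 31.8% of the UMIs of other wells and 30.3% to 32.8% of those of enterocyte-marker wells. None of 83 ribosomal protein genes passed in either direction by edgeR (median log2 change -0.23), with 0 higher and 0 lower at an unadjusted p under 0.05 and 0 by DESeq2. Their share differed between mice, at 0.9245%, 1.05%, 2.68% and 6.20% of goblet UMIs and 0.411%, 3.26%, 3.04% and 2.24% of other UMIs in mice 1 to 4.

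Among the largest falls were genes of blood cells. Fcer1g and Tyrobp, adaptors of immune receptors, and Vim, a filament protein of mesenchymal and immune cells, had no UMI in goblet wells and 8.54 to 227, 19.9 to 217.5 and 8.94 to 86.4 CPM in the other sums. With 3 UMIs as the floor, Fcer1g was at least 21.2-fold lower, Tyrobp at least 19.7-fold and Vim at least 9.92-fold, and the call of Vim was lost when members were taken from 10 UMIs on. Prlr, the prolactin receptor, and Gm2a, a lysosomal lipid carrier, also had no UMI in goblet wells and were at least 9.96-fold and 10.15-fold lower. Gzma, a granzyme of lymphocytes, had 0, 22.6, 68.7 and 39.4 CPM in goblet wells against 8.54, 5194, 3415 and 2045, where mouse 1 had 1 lymphocyte-marker well. The calls of the lymphocyte genes Gzma, Gzmb, Cd7 and Ccl5 were lost without wells of tuft, enteroendocrine and lymphocyte markers, and also without mouse 4, and those of Gzma and Ccl5 without plates labelled CD24 too.

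All 8 enterocyte genes of the marker rule, 6 of 7 tested lymphocyte markers, 2 of 8 enteroendocrine markers and 2 of 5 tuft markers fell, and none of these rose, with 1 enteroendocrine marker higher at an unadjusted p under 0.05 and 0 by DESeq2. By edgeR, 0 of 5 stem and dividing-cell markers and 0 of 3 red cell and plasma cell markers rose and none fell. At an unadjusted p under 0.05, 0 of the former and 3 of the latter were lower, and DESeq2 called 0 and 1. Of 12 tested Paneth markers, 4 rose (Mmp7, Ang4, Pnliprp2 and Itln1) and 0 fell. The Paneth list summed to 819.8, 2337, 5562 and 4251 CPM in goblet wells and 70.3, 4224, 319.7 and 128 CPM in other wells of mice 1 to 4. Its part in the other results, beyond the values without those 39 members, was not tested.

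**Figure D3:**
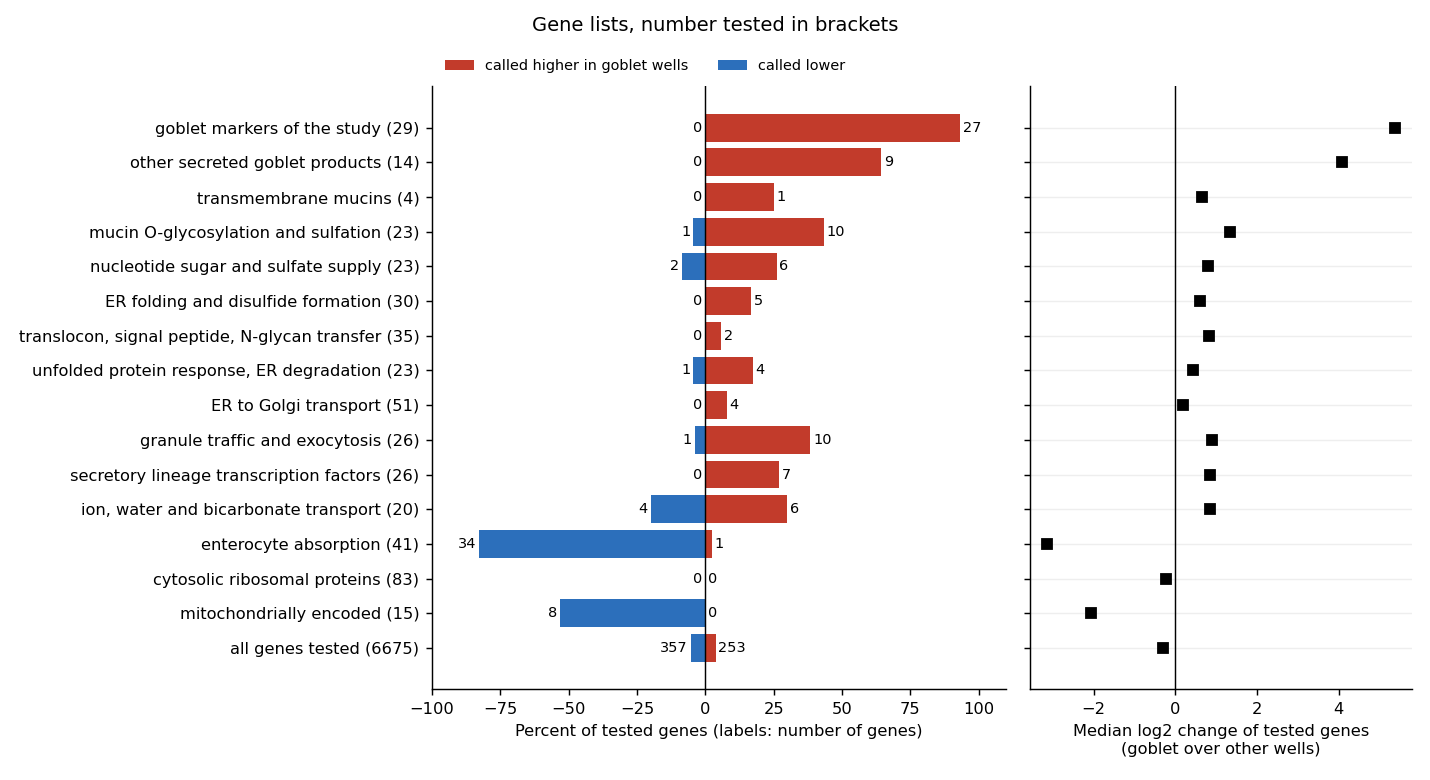
Left, percent of the tested genes of each list called higher (red) or lower (blue) in goblet wells, with the number of genes beside each bar; right, median log2 change of the tested genes of each list. Goblet markers of the study have 27 of 29 genes called higher and enterocyte absorption has 34 of 41 called lower, beside 253 and 357 of all 6675 genes.

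Goblet wells were next set against single other cell types, each taken by its own markers. The 3 comparisons and the one above share the goblet sums, so each is given for itself. Against 1852 enterocyte-marker wells (4 mice), 1099 of 4080 genes were called (26.9%), 437 higher (10.7%) and 662 lower (16.2%). With the mouse as a block 741 were higher and 818 lower, and 693 were called in all without mouse 2. Against 153 tuft-marker wells, of which mouse 4 with 4 wells was left out, 392 of 1256 genes were called (31.2%), 200 higher (15.9%) and 192 lower (15.3%), with 127 called without mouse 2 and 624 without mouse 3. Against 245 enteroendocrine-marker wells (4 mice), 90 of 529 were called (17%), 60 higher (11.3%) and 30 lower (5.67%), with 30 called without mouse 2 and 256 without mouse 4. Another scaling, by DESeq2 size factors, shifted the median of all genes from -0.16 to -0.36, from 0.06 to 0.27 and from -0.06 to 0.13 in the 3 comparisons, and the changes below are to be read against these medians.

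Genes picked for their rise over all other wells were set against a pool that holds these same wells, with the same goblet sums, and many enter a test here through the goblet side alone. Their changes over single cell types are therefore given as a description. Ccl6 had log2 changes of 7.78 ± 0.60 SE over enterocyte-marker, 7.305 ± 0.58 SE over tuft-marker and 7.085 ± 0.72 SE over enteroendocrine-marker wells. Agr2 had 75.4, 702, 572 and 619.5 CPM in the enteroendocrine-marker wells of mice 1 to 4, and its log2 change over them was 3.12 ± 0.63 SE. Over enterocyte-marker and tuft-marker wells the log2 change of Agr2 was 8.05 ± 0.66 SE and 8.35 ± 0.58 SE. Gcnt3 was also present in enteroendocrine-marker wells, at 0, 36.2, 57.2 and 88.5 CPM (log2 change 3.36 ± 0.72 SE). Whether these changes differ between the cell types was not tested.

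Over enterocyte-marker wells, 17 of 31 tested genes of ER import and N-glycan transfer rose and 0 fell (median log2 change 1.455). Of 20 folding genes 9 rose and 1 fell, where 10.7% of all genes rose and 16.2% fell. Over tuft-marker wells, 5 of 21 rose and 1 fell, and 4 of 13 rose and 0 fell, where 15.9% of all genes rose and 15.3% fell. Over enteroendocrine-marker wells, 0 of 6 rose and 0 fell, and 1 of 8 rose, which was Agr2, and 0 fell, where 11.3% of all genes rose and 5.67% fell. Of the genes of ER import and N-glycan transfer, 2 were higher there at an unadjusted p under 0.05 and 2 by DESeq2. For Xbp1 the log2 change was 1.83 ± 0.35 SE, adjusted p = 0.00154 over enterocyte-marker wells, 2.605 ± 0.56 SE, adjusted p = 0.00144 over tuft-marker wells and 0.80 ± 0.41 SE, adjusted p = 0.223 over enteroendocrine-marker wells. A value that misses the threshold, with so few genes tested, does not show that levels were alike.

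Klf4 was at 374, 322, 143 and 329.5 CPM in enterocyte-marker wells and did not pass there (log2 change 0.21 ± 0.46 SE, adjusted p = 0.764). It was higher in goblet than in tuft-marker wells (1.76 ± 0.48 SE, adjusted p = 0.00856) and than in enteroendocrine-marker wells (3.01 ± 0.69 SE, adjusted p = 0.005985). Genes of the absorption list also went by the partner. Over enterocyte-marker wells 29 of 31 fell and 1 rose, and over tuft-marker wells 6 of 13 rose and 2 fell. Over enteroendocrine-marker wells 4 of 8 rose, Lypd8 among them, and 0 fell. In the same order, 10.7%, 15.9% and 11.3% of all genes rose and 16.2%, 15.3% and 5.67% fell. The absorption list summed to 9500, 7729 and 6184 CPM in goblet wells of mice 1 to 3 and to 9676, 8022 and 8261 CPM in their tuft-marker wells, lower in goblet wells of each mouse. TMM put the log2 changes of that comparison above the CPM ratios on average. The mean log2 factor of goblet minus tuft-marker sums was -0.614. Of mitochondrially encoded genes, 14 of 14 fell over enterocyte-marker wells, 1 of 12 over tuft-marker wells and 0 of 12 over enteroendocrine-marker wells. The shares over all genes that fell were 16.2%, 15.3% and 5.67%. Paneth markers rose for 7 of 8, 1 of 7 and 0 of 3 tested in the same order, beside 10.7%, 15.9% and 11.3% of all genes. Where none passed over enteroendocrine-marker wells, none of the mitochondrial genes or Paneth markers had an unadjusted p under 0.05 or was called by DESeq2. Of the ribosomal protein genes, 16 of 81 rose and 0 fell over enterocyte-marker wells, beside 10.7% and 16.2% of all genes, and 22 rose by DESeq2. Over tuft-marker and over enteroendocrine-marker wells, 0 of 77 passed in either direction by edgeR or DESeq2. At an unadjusted p under 0.05, 0 differed over tuft-marker wells and 8 were lower over enteroendocrine-marker wells.

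**Figure D4:**
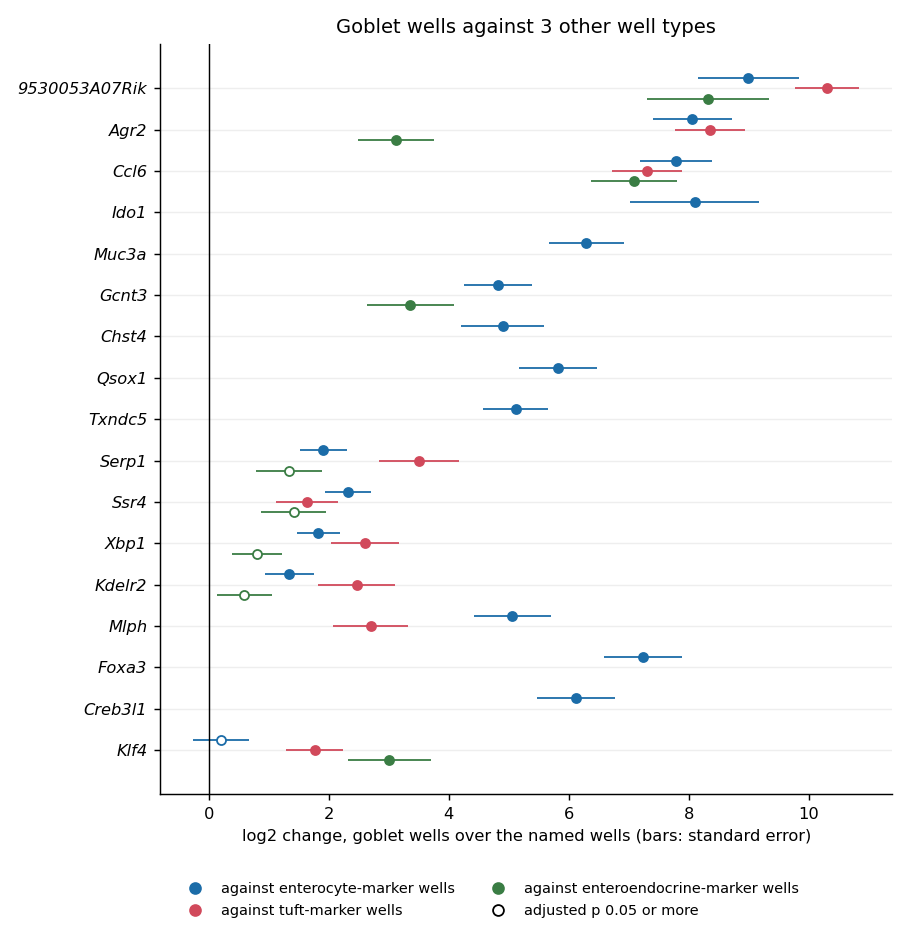
log2 change of goblet wells over enterocyte-marker, tuft-marker and enteroendocrine-marker wells (a colour each), with bars for the standard error; open points did not pass an adjusted p of 0.05, and genes not tested or with 3 or fewer UMIs in a group have no point. Agr2 lies at 8.05 and 8.35 over enterocyte-marker and tuft-marker wells and at 3.12 over enteroendocrine-marker wells.

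Since wells differ in depth, each was also thinned to 1000 UMIs, which left out 43 shallower goblet wells and kept 177. At that depth Agr2 was found in 78.0% (71.1% to 83.8%) of goblet wells, with exact 95% binomial intervals over the pooled wells that cover counting error only and not the spread between mice. In mice 1 to 4 its share was 65%, 74.2%, 87.5% and 90.9%. The shares were 57.1% (49.4% to 64.5%) for Ccl6, 55.4% (47.7% to 62.8%) for Ido1 and 27.7% (21.2% to 34.9%) for Fer1l6. Ido1 was uneven between mice, at 80%, 77.4%, 25% and 18.2%, while Ccl6 ran from 51.6% to 62.5% and Fer1l6 from 18.2% to 37.1%. In 545 lymphocyte-marker wells, which should lack these genes, the shares of Agr2, Ccl6 and Ido1 were 1.28%, 1.47% and 0.1835%. Before thinning, Agr2, Ccl6 and Ido1 were in 83.2%, 77.3% and 63.6% of goblet wells. The thinned wells had median depths of 2378 UMIs in goblet and 1377 in lymphocyte-marker wells.

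The transcription factors were found in fewer wells at this depth. Atoh1 was in 13.6% (8.885% to 19.5%), Spdef in 10.2% (6.14% to 15.6%) and Foxa3 in 16.95% (11.7% to 23.3%) of goblet wells, and single mice gave 7.50% to 27.3%, 7.50% to 12.9% and 11.3% to 30%. Neither Atoh1 nor Spdef was found in the 545 lymphocyte-marker wells, where a count of 0, taken as up to 3 wells, allows a share of wells with a UMI of up to 0.5505%. This limits wells with a UMI at this depth, not cells that express the gene. Agr2 was in 23.35% (17.6% to 29.9%) of 197 enteroendocrine-marker wells, above its share in lymphocyte-marker wells. Klf4 was in 35.0% (28.0% to 42.5%) of goblet, 23.5% of enterocyte-marker, 20.3% of tuft-marker, 8.12% of enteroendocrine-marker and 1.10% of lymphocyte-marker wells. Transcripts outside goblet cells were measured in nearly empty wells, where 2011 wells with 1 to 49 UMIs held the 6 genes of the rule at 2528 CPM in all, against 422 CPM in enterocyte-marker and 1252 CPM in enteroendocrine-marker wells.

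Clumps labelled 4n, sorted by DNA content and taken here as pairs of cells, gave libraries that the rule on single cells had not used. A pair holds a second cell of unknown type, and the labels do not say whether a mouse number names the same animal in both tables. Of 3294 kept pairs, 247 held at least 20 UMIs of the 6 genes, namely 28, 34, 176, 3 and 6 in mice 1 to 5, and mouse 4 was left out for its few pairs. Goblet-marker pairs were deeper in each mouse, with median UMIs of 2332, 1964, 5121 and 1036 in mice 1, 2, 3 and 5 against 1711, 1510, 2374 and 735.5 in other pairs, and the part of depth in the calls was not tested. Of 5937 genes tested over the other 4 mice, 65 were higher (1.09%) and 8 lower (0.135%) in goblet-marker pairs. With the mouse as a block the counts were 96 and 90. Mouse 3, with most of the pairs, carried the result, with 4 higher and 1 lower called without it, while 98 were higher without mouse 5 and 19 lower without mouse 1.

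Of the genes that rose in goblet wells, 155 could be tested in pairs, and 36 of them rose there, which is 23.2% of these 155 and 72% of the 50 genes higher in pairs that were tested in both. Their median log2 change in pairs was 0.72, beside -0.07 over the 5408 genes tested in both. Of 292 genes that fell in goblet wells and were tested in pairs, 6 fell in pairs (2.055%), which is 75% of the 8 lower genes there, and their median log2 change in pairs was -0.60.

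Ccl6 had 812, 509, 473 and 204 CPM in goblet-marker pairs of mice 1, 2, 3 and 5 and 7.37, 2.05, 10.1 and 0 in other pairs (log2 change 6.50 ± 0.57 SE, adjusted p = 3.32e-10). Agr2 had 1684, 1637, 1524 and 1124 CPM against 14.75, 4.11, 40.03 and 47.25 (6.32 ± 0.73 SE, adjusted p = 1.54e-07). Neither overlapped between the groups, as was the case for 0.91% of all 5937 genes tested in pairs in this direction and 4.13% in the other.

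Ido1 had 250.4, 220.1, 150.3 and 34.05 CPM in goblet-marker pairs against 0, 1.03, 5.23 and 0 (6.11 ± 0.52 SE, adjusted p = 3.32e-10). Creb3l1 had 43.2, 48.2, 35.3 and 68.1 CPM against 5.735, 1.54, 5.63 and 0 (3.33 ± 0.44 SE, adjusted p = 1.26e-06). Slc12a8 had 77.7, 61.9, 54.4 and 34.05 CPM against 3.28, 4.62, 5.63 and 0 (3.78 ± 0.42 SE, adjusted p = 9.19e-08). The sums of these 3 did not overlap. Txndc5, whose sums overlapped, rose too (3.18 ± 0.40 SE, adjusted p = 5.97e-07). Ssr4, Serp1, Kdelr2, Arf4 and Vimp, called among single cells, did not pass in pairs, with log2 changes of 0.03 to 0.65. Apoa1 and Apoa4 stood at 2963 to 5966 and 1190 to 2758 CPM in goblet-marker pairs and did not pass.

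In the pairs, all 15 Paneth markers tested rose, with a median log2 change of 6.07, among them the lysozyme gene Lyz1 (5.26) and the defensin genes Defa24 (6.42) and Defa3 (7.11), whose reads may be split among similar defensins. Of the 247 goblet-marker pairs, 72 held at least 10 UMIs of Paneth markers, namely 1, 7, 63 and 1 in mice 1, 2, 3 and 5, and of the other pairs 78 did. The markers summed to 96410, 1211, 79430 and 70900 CPM in goblet-marker pairs of these mice and to 1825, 55.4, 1587 and 189 CPM in other pairs, so that the sums of mice 1 and 5 each rested on few pairs, with a single one past that limit. Without those pairs of either group, 23 genes were higher and 13 lower. Beyond these counts, the part of Paneth cells in the calls among pairs was not tested.

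**Figure D5:**
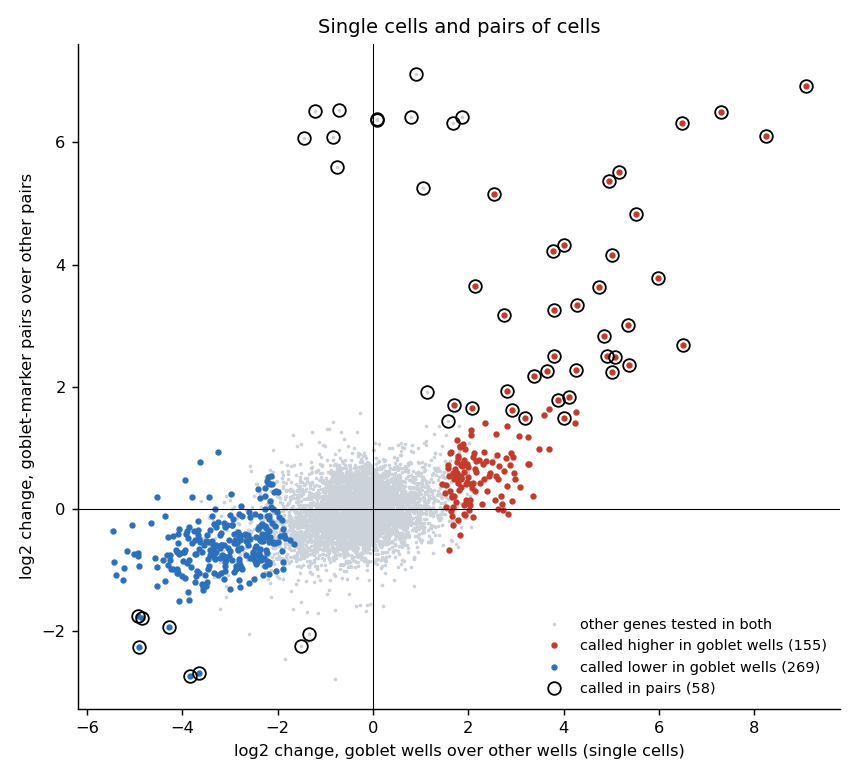
log2 change of goblet wells over other wells among single cells (horizontal axis) against that of goblet-marker pairs over other pairs (vertical axis), a point per gene, for 5381 genes tested in both, with 27 that have no UMI in a group left out. Red points are 155 genes called higher and blue points 269 called lower in goblet wells, ringed points are 58 genes called in pairs, and 143 red points lie above 0 on the vertical axis.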

How the data were processed

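Single cells of the mouse jejunum and sorted clumps were sequenced by MARS-seq. The authors deposited raw UMI counts per gene and well, made with zUMIs and STAR on GRCm38, and the background subtraction they describe is not in these counts. UMI counts of kept wells were summed per mouse and group as given in the report. Sums were compared by edgeR 4.0.16 (R 4.3.3; filterByExpr, TMM, quasi-likelihood, no mouse block, Benjamini-Hochberg at 0.05), tested first on simulated data; DESeq2 1.42.0, other filters, limits and left-out mice were alternatives. Depth limits low genes, above all in mouse 4. A gene that did not pass is not shown to be unchanged. Tuft-, enteroendocrine- and lymphocyte-marker wells held at least 10 UMIs of their markers, enterocyte-marker wells at least 20; a mouse entered with at least 5 wells a side. Pairs had at least 200 genes, over 500 UMIs and at most 30% mitochondrial UMIs.

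A mouse number was taken as 1 animal within a table, though mouse 2 has plates labelled 3 and 4 months. Deviations of goblet and other sums of a mouse from the group means correlated at r = 0.477, -0.0641, 0.278 and 0.147 in mice 1 to 4. Mice 2 and 4 reached a higher r, 0.367, with another mouse, so these values do not settle whether a number is 1 animal. Named genes were the 12 largest rises and 6 largest falls among called genes with a mean of at least 50 CPM in the higher group, the up to 4 called genes of each list with the largest change, all moving the same way in every mouse, and 9 transcription factors whatever their result; other genes were chosen after their values were seen. Members and lists were chosen with earlier results of these data known. Protein sequences were not analysed here.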

Additional observations from a re-analysis of the deposited data

Results flagged for a closer look

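Mice that stood far from the other 3 of their group were sought by Dixon's test at its 95% level in 101 groups of values, of which chance alone picks about 1 in 20. The median depth of other wells was 2911 UMIs in mouse 1, where the other mice had 1382 to 1633. Bcas1 stood at 39.4 CPM in the goblet wells of mouse 4, against 245 to 249 in the other mice, and Mlph at 39.4 CPM in mouse 4, against 100.2 to 107.5. Clcn2, Enpep and Reg3a stood at 39.4 CPM in mouse 4 as well, where the other mice had 0 CPM of Clcn2, 0 to 4.90 CPM of Enpep and 0 CPM of Reg3a. A level of 39.4 CPM is 1 UMI in the goblet sum of mouse 4, so these 5 values rest on a single molecule each. Galnt5 stood at 9.11 CPM in mouse 1, against 39.2 to 45.3 in the other mice. Gnpnat1 stood at 17.0 CPM in mouse 2, against 36.4 to 39.4. Mmp7, a Paneth protease, stood at 33.95 CPM in the goblet wells of mouse 2, against 145.7 to 157.4 in the others.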

How the results depend on the processing

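Against all other wells, leaving out each mouse in turn gave 132 to 317 higher and 129 to 578 lower genes. DESeq2 called 381 and 546, no filter on low counts 310 and 917, and a limit of 10 UMIs for members 187 and 148, more higher than lower, where the reported counts are 253 and 357. The difference in median UMIs per well ran from -246 without mouse 3 to 500.3 without mouse 1. Leaving out a mouse gave 127 to 624 genes against tuft-marker, 30 to 256 against enteroendocrine-marker and 693 to 1259 against enterocyte-marker wells, and 4 to 98 higher and 1 to 19 lower genes in pairs. With no filter 328 genes were called against enteroendocrine-marker and 1952 against enterocyte-marker wells, and 169 higher and 13 lower in pairs. In pairs, DESeq2 called 4 lower, pairs with larger clumps 51 higher and 0 lower, at least 40 UMIs of the 6 genes 1 lower, and leaving out pairs with Paneth markers 23 higher and 13 lower. The cause of these shifts was not tested, save that fewer mice or genes entered some. That last alternative, and those without CD24 plates, without members with Paneth markers and without Gm42418 and mitochondrial genes, were chosen after seeing the data. With the mouse as a replicate block, pairing the sums of a mouse number, 339 higher and 497 lower genes were called against all other wells. The counts were 741 and 818 against enterocyte-marker wells, and 96 and 90 in pairs. Among 71 tested named genes the block changed the call of Foxa1 alone. Of the 67 that were called, 37 kept their call in every alternative that tested them and 0 reversed. The limit of 10 UMIs for members took the call from 18. Shallow sums, above all in mouse 4, limit what can be seen of low genes.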
